A study of Mus musculus with 10 samples.

Results

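The platelet-derived growth factor (PDGF) family was followed in kidney glomeruli, the capillary tufts that filter blood, through its 4 ligand genes (Pdgfa, Pdgfb, Pdgfc and Pdgfd) and its 2 receptor genes (Pdgfra and Pdgfrb). These 6 genes were taken by name from the 22053 gene identifiers of the table, and all 6 were found and passed the filter on low values. RNA-seq had been run on 10 glomerular libraries of the mouse. Of these, 5 were wild type for Col4a3 and 5 carried the missense change p.G799R in Col4a3, the gene of a type IV collagen chain of the glomerular basement membrane. Neither group carried a treatment in its labels. The labels name no zygosity, strain, age or sex, no way of isolating glomeruli, and no mouse for each library. The tests therefore measure spread among libraries, some of which may be technical. The question, from the design text, is how the mutant differs from the wild type.

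PDGF ligands are dimers that bind and pair receptor tyrosine kinases. PDGF-A and PDGF-B are cut into their active form by furin-type proteases inside the cell. PDGF-C and PDGF-D are secreted with a CUB domain that a protease outside the cell has to remove. In the glomerulus the textbook pair is PDGF-B from endothelial cells and the beta receptor on mesangial cells, the pericyte-like cells that hold the capillary loops together. Mice that lack either of them form no mesangium. The alpha receptor marks fibroblast-like cells in many tissues.

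Among the members whose promoters were searched, Pdgfd and Pdgfra were both higher in G799R and have 1 start site each in the RefSeq promoter table. The 250 bases before that start are shown, from RefSeq on GRCm38.p6, both on the plus strand. Pdgfd is at chr9:6168236-6168485 and Pdgfra at chr5:75152001-75152250. Capitals mark TATAAA, the motif at which general transcription factors often assemble.
Pdgfd: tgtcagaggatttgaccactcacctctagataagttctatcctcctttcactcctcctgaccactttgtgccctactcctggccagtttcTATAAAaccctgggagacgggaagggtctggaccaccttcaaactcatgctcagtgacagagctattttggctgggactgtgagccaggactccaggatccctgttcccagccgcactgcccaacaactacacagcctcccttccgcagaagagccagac
Pdgfra: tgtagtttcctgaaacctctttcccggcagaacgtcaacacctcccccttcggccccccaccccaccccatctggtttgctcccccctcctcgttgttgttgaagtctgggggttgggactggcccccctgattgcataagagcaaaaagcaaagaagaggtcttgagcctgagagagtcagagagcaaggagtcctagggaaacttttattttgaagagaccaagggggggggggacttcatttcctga
The TATAAA of Pdgfd begins 160 bases before the start, and 12.4% of the 32851 promoter windows of this length hold that motif on either strand. Neither window holds GGGCGG (a GC box, in 32.7% of windows) or TTCNNNGAA (the STAT site known as GAS, in 7.02%). Of the 2 windows listed for Pdgfa, 1 holds a single GGGCGG and the other 2 copies. The window of Pdgfc holds none of the 3 motifs. Pdgfrb was left out of this search, and Pdgfb has no entry among the RefSeq promoters used. Motifs were searched on both strands, and a match is a description of the letters only.

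Markers of several cell types differed between the groups, and every value below is read beside that. Values are FPKM, fragments per kilobase of transcript, scaled to the size of the library, and log2 differences are G799R minus wild type on the log2(FPKM + 1) scale. Column sums ran from 320720 to 340875 FPKM, and absolute depth is unknown. Relative depth, read from the steps of low values, was 0.861 to 1.19 times that of wild-type library 1. Its mean was 1.09 in wild type and 0.928 in G799R. The 10 proximal tubule markers summed to 1732 to 3025 FPKM in wild type and 160 to 366 in G799R, and all 10 fell. All 9 distal tubule and collecting duct markers fell too, among them Egf to 0.291 and Atp6v1b1 to 0.160 times wild type. The defining markers of the tuft cells were present in every library. By limma all 10 podocyte markers, 10 of 12 endothelial markers and 9 of 14 mesangial and mural markers were called higher, and 0 lower. At an unadjusted p under 0.05 the mural marker Rgs5 was lower. Over all tested genes 40.5% were called higher and 19.3% lower. The podocyte transcription factor gene Wt1 rose 1.92-fold. Summed endothelial markers were 1269 to 2420 FPKM in wild type and 2580 to 2921 in G799R, and summed mesangial and mural markers 670 to 1120 and 1501 to 2033. Interstitial fibroblast markers were scarce, with 5 of 8 under a mean of 0.5 FPKM. The list summed to 15.5 to 25.4 FPKM in wild type and 38.2 to 67.5 in G799R, nearly all of it Col1a2 (medians 18.4 and 56.3 FPKM). Col1a2 and Dcn rose, Col3a1 passed the filter on low values only through G799R (means 0.493 and 1.09 FPKM), and the scarce Mfap5 and Dpt had lower medians in G799R. In bulk libraries fewer cells of a type and less RNA per cell cannot be told apart, and the part of these shifts in the results below was not tested beyond the marker scalings given.

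The receptor genes were both higher in G799R glomeruli, while the ligand genes stood at 0.989 to 1.35 times wild type. Pdgfrb, the beta receptor gene, rose 2.21-fold and Pdgfra rose 1.496-fold. Among ligands, Pdgfd rose 1.35-fold and Pdgfa 1.23-fold, whereas Pdgfb and Pdgfc were not called. Thus 4 of 6 genes were called higher and 0 lower, by limma with Benjamini-Hochberg adjustment over all 13117 tested genes, and at an unadjusted p under 0.05 the counts were also 4 and 0. Of those tested genes 40.5% were called higher and 19.3% lower, so the count of members carries little on its own. The groups did not overlap for 1 of the 6, against 26.1% of tested genes whose G799R libraries all lay above wild type.

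Pdgfrb (ENSMUSG00000024620) stood at 103, 86.1, 106, 57.6 and 66.6 FPKM in wild-type libraries 1 to 5 and at 169, 197, 180, 194 and 187 FPKM in G799R libraries 1 to 5. Every G799R library lay above every wild-type library, and the wild-type libraries were the more spread. The means were 83.9 ± 21.5 and 186 ± 11.04 FPKM (SD, n = 5 each), a log2 difference of 1.17 ± 0.15 (SE) with a limma adjusted p of 8.6e-05. No single library decided this call: leaving out each in turn gave log2 differences of 1.05 to 1.27.

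Pdgfrb rose by more than the mean of the mesangial and mural markers, a mixed list in which some genes did not rise. With the mesangial and mural marker score set equal in every library, its log2 difference was 0.59 ± 0.14 (SE, limma adjusted p = 0.0026). That fit called 53.2% of tested genes, 393 higher and 6581 lower, and the median of all genes was −0.41. Setting the endothelial score equal left 0.46 ± 0.13 (adjusted p = 0.0066; 2.13% of tested genes called higher and 69.9% lower), and setting the pooled podocyte, endothelial and mesangial score equal left 0.50 ± 0.11 (adjusted p = 0.0014). In that last fit 2.77% of tested genes were called higher and 72.4% lower, and the median of all genes was −0.50, against 0.17 as deposited. Of the 14 mesangial and mural markers, the protease inhibitor gene Serpine2 rose 2.29-fold and the renin gene Ren1 2.05-fold, beside 2.21-fold for Pdgfrb. The contractile genes Acta2, Myh11 and Tagln, picked with their values known, were 1.01, 1.03 and 1.04 times wild type and were not called. Rgs5, picked in the same way, stood at 0.705 times wild type and was not called (limma adjusted p = 0.056).

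**Figure D1:**
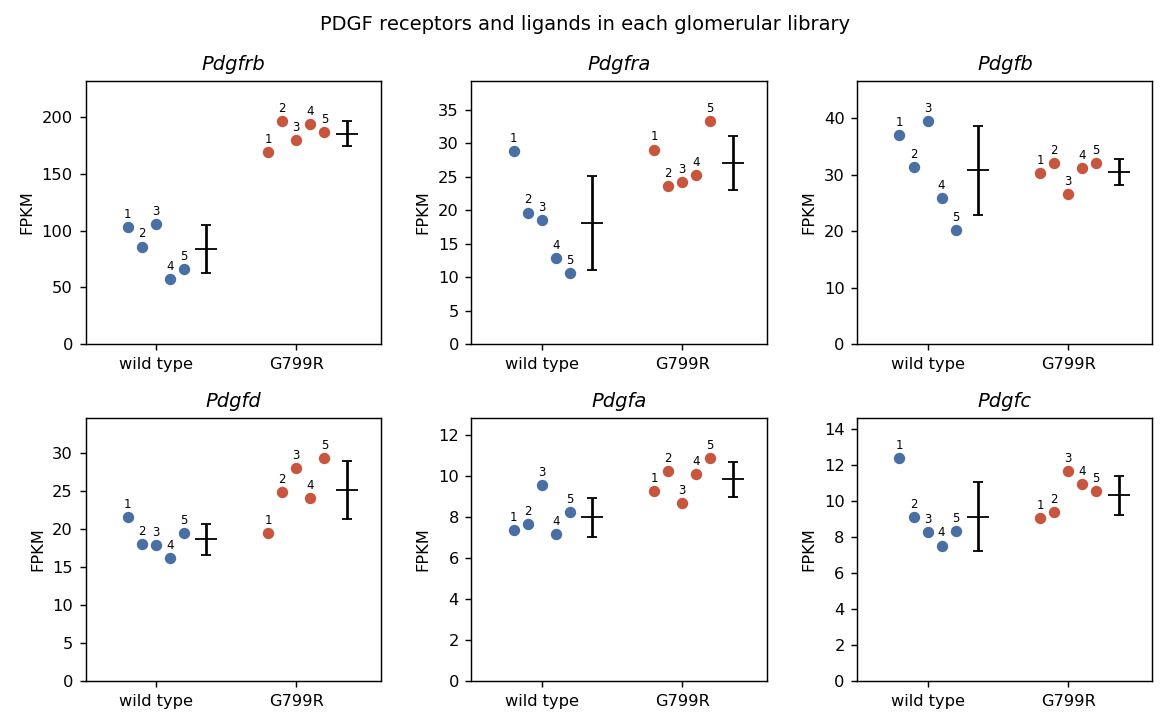
FPKM of the 6 genes in each library (vertical axis, linear from 0) for wild type and G799R, with replicate numbers beside the points and bars for mean ± SD (n = 5 each). The 5 G799R libraries of Pdgfrb sit between 169 and 197 FPKM, above the 57.6 to 106 FPKM of wild type, while the groups overlap for the other 5 genes.

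Pdgfra (ENSMUSG00000029231, chromosome 5 at 75152292 to 75198215 in GENCODE M21 on GRCm38) was at 28.8, 19.7, 18.6, 12.9 and 10.6 FPKM in wild-type libraries 1 to 5. The G799R libraries had 29.1, 23.7, 24.2, 25.3 and 33.3 FPKM. Wild-type library 1 lay among the G799R libraries and the other 4 wild-type libraries below them. Means of 18.1 ± 7.07 and 27.1 ± 4.07 FPKM (SD, n = 5 each) gave a log2 difference of 0.62 ± 0.22 (SE, limma adjusted p = 0.0277). The call was lost without any 1 of wild-type libraries 4 and 5 and G799R libraries 1 and 5 (adjusted p 0.056 to 0.069). It did not hold against the markers of the tuft either, at −0.05 ± 0.19 with the glomerular score equal (adjusted p = 0.82) and 0.04 ± 0.19 with the mesangial score equal (adjusted p = 0.87). Of the 8 fibroblast markers, 5 averaged under 0.5 FPKM, and among these Mfap5 and Dpt had lower medians in G799R. The collagen chain gene Col1a2 rose 2.83-fold and Dcn, which encodes the matrix proteoglycan decorin, rose 2.05-fold to 3.08 FPKM in the same libraries. With the glomerular score equal, Col1a2 was at 0.76 (limma adjusted p = 0.0065) and Dcn at 0.04 (adjusted p = 0.84).

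The beta receptor was the more abundant receptor RNA in every library. Its share of the summed receptor FPKM was 82.5% ± 3.20 (SD, n = 5) in wild type, and in G799R it was 87.2% ± 1.97 (SD, n = 5). The log2 ratio of Pdgfrb to Pdgfra was 2.19 in wild type and 2.74 in G799R, a difference of 0.55 ± 0.17 (SE), with 3 of 5 G799R libraries above all wild-type libraries. This did not pass adjustment (exact two-sided permutation p = 0.0317, adjusted over 5 ratios 0.0529), and without wild-type library 5 it did (0.64, adjusted exact permutation p = 0.0132).

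Pdgfb, the endothelial ligand of the beta receptor, showed no difference that passed the test. Its identifier is ENSMUSG00000000489 and it lies on chromosome 15 at 79995874 to 80014977. Wild-type libraries 1 to 5 had 37.0, 31.4, 39.5, 25.9 and 20.3 FPKM, and G799R libraries 30.4, 32.02, 26.6, 31.2 and 32.2 FPKM. The G799R libraries lay inside the wild-type range. Means were 30.8 ± 7.91 and 30.5 ± 2.29 FPKM (SD, n = 5 each), with a log2 difference of 0.02 ± 0.15 (SE, limma adjusted p = 0.92). Of the 12 endothelial markers 10 were called higher and 0 lower in the same libraries, beside 40.5% and 19.3% of all tested genes. Plvap, a diaphragm protein of fenestrae, was at 2.25-fold and the tight junction gene Cldn5 at 1.57-fold. Kdr (1.37-fold, limma adjusted p = 0.081) and Ehd3 (1.12-fold, limma adjusted p = 0.38), picked with their values known, were not called. With the endothelial score set equal Pdgfb was called lower, at −0.69 ± 0.16 (adjusted p = 0.0019), in a fit that called 69.9% of tested genes lower and had a median over all genes of −0.54.

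**Figure D2:**
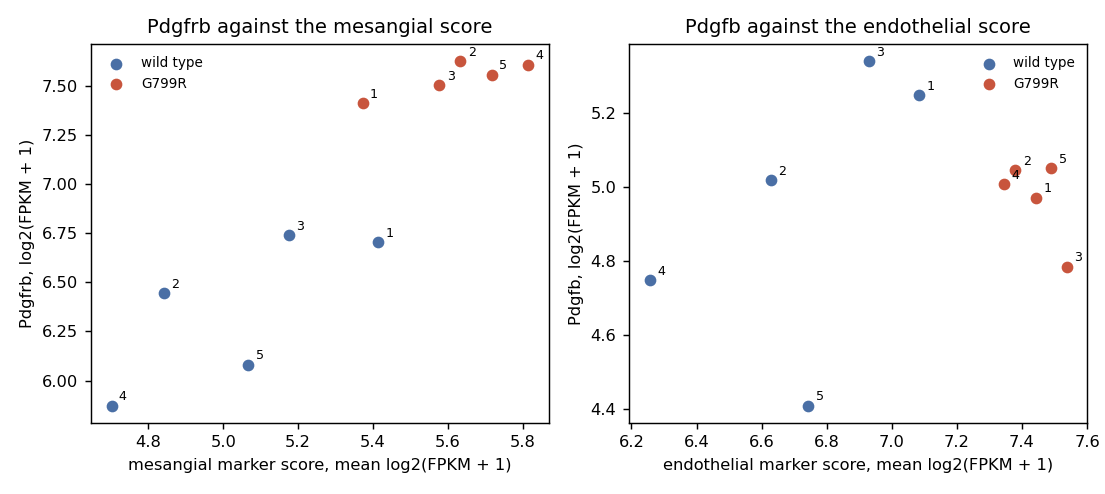
Left, Pdgfrb against the mesangial and mural marker score; right, Pdgfb against the endothelial marker score, each point 1 library, numbered by replicate, on log2(FPKM + 1) axes that do not start at 0. The G799R points lie above all wild-type points for Pdgfrb, and to the right of all wild-type points, at middle height, for Pdgfb.

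Pdgfd (ENSMUSG00000032006, chromosome 9 at 6168584 to 6378850), the other ligand known to activate the beta receptor, was at 21.5, 18.0, 17.8, 16.2 and 19.5 FPKM in wild-type libraries 1 to 5. In G799R libraries 1 to 5 it was at 19.4, 24.8, 27.98, 24.1 and 29.3 FPKM. G799R library 1 lay within the wild-type range and the other 4 above it. The means of 18.6 ± 2.02 and 25.1 ± 3.86 FPKM (SD, n = 5 each) differed by 0.41 ± 0.11 on the log2 scale (SE, limma adjusted p = 0.0081), and each of the 10 fits that left out 1 library kept the call. Under median-of-ratios scaling it was 0.24 and not called (adjusted p = 0.087), and under glomerular marker scaling the sign turned, to −0.26 ± 0.11 (adjusted p = 0.0411). Pdgfd RNA made up 28.3% of summed ligand FPKM in wild type and 33.1% in G799R, and Pdgfb 45.8% and 40.3%.

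The ratio of each ligand to its receptor does not depend on how a library is scaled, apart from the small pseudocount. Pdgfb was 0.358, 0.365, 0.373, 0.449 and 0.304 times Pdgfrb in wild-type libraries 1 to 5 and 0.179, 0.163, 0.147, 0.161 and 0.172 times in G799R libraries. The groups were apart, with all 5 G799R libraries below all wild-type libraries. On the log2 scale the Pdgfb to Pdgfrb ratio went from −1.42 ± 0.19 to −2.57 ± 0.10 (SD, n = 5 each), a difference of −1.15 ± 0.10 (SE) or 2.23-fold lower. Its exact two-sided permutation p was 0.0079, the smallest that 5 against 5 libraries allow, and 0.0198 adjusted over the 5 ratios. The Pdgfd to Pdgfrb ratio was also lower in all 5 G799R libraries, by a log2 difference of −0.77 ± 0.17 (SE), 1.70-fold, with the same exact permutation p values. The endothelial score was higher by 0.71 and the mesangial score, a mean over a mixed list, by 0.58 in these libraries. The part of cell makeup in the ratios was not tested.

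For the alpha receptor the differences in ratio were smaller and did not pass. The Pdgfa to Pdgfra ratio differed by −0.35 ± 0.26 (SE, exact permutation p = 0.23, adjusted 0.23) and the Pdgfc to Pdgfra ratio by −0.45 ± 0.19 (p = 0.0556, adjusted 0.0694, exact permutation). Without wild-type library 1, which had the most Pdgfra of its group, these became −0.56 and −0.52 and passed, with adjusted exact permutation p of 0.0397 and 0.0496.

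**Figure D3:**
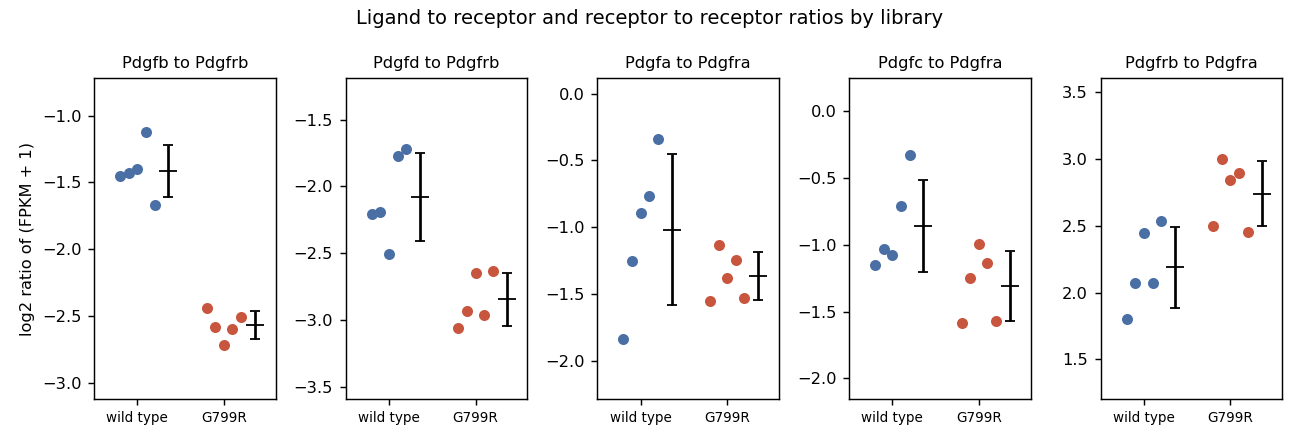
Log2 ratios of (FPKM + 1) between pairs of PDGF genes in each library, with bars for mean ± SD (n = 5 each); every panel spans 2.4 log2 units. The Pdgfb to Pdgfrb and Pdgfd to Pdgfrb panels show all 5 G799R libraries below all wild-type libraries, and the other 3 panels overlap.

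Pdgfa and Pdgfc, the ligands that act mainly through the alpha receptor, were the 2 lowest members. Pdgfa (ENSMUSG00000025856, chromosome 5 at 138976014 to 138997370, minus strand) was at 7.36, 7.66, 9.54, 7.16 and 8.22 FPKM in wild-type libraries 1 to 5 and 9.25, 10.2, 8.70, 10.1 and 10.9 in G799R libraries. Wild-type library 3 lay within the G799R range, and the other 4 below it. The log2 difference was 0.27 ± 0.09 (SE, limma adjusted p = 0.0212). It was lost without wild-type library 4 (0.24, adjusted p = 0.0504) or G799R library 5 (0.24, adjusted p = 0.0543) or under median-of-ratios scaling (0.11, adjusted p = 0.28), and turned to −0.40 ± 0.12 under glomerular marker scaling (adjusted p = 0.00995).

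Pdgfc (ENSMUSG00000028019, chromosome 3 at 81036416 to 81214040) was at 12.4, 9.09, 8.26, 7.52 and 8.30 FPKM in wild-type libraries 1 to 5 and 9.04, 9.39, 11.6, 10.9 and 10.6 in G799R libraries. Wild-type library 1 had the highest value of all 10. The log2 difference of 0.17 ± 0.12 (SE) was not called (limma adjusted p = 0.23). Without wild-type library 1 it was 0.28 and was called (adjusted p = 0.0184), and with the glomerular score equal it was −0.50 ± 0.11 (adjusted p = 0.0012).

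Ordered by level per length, wild-type glomeruli held Pdgfrb, then Pdgfb, Pdgfd, Pdgfra, Pdgfc and Pdgfa. Pdgfrb exceeded every other member in all 10 libraries, and Pdgfb exceeded Pdgfd and Pdgfra in 9 of 10 each. Pdgfd and Pdgfra were not separated, with Pdgfra higher in 6 of 10 libraries. Pdgfc was above Pdgfa in 6 of 10. In G799R the mean of Pdgfra, at 27.1 FPKM, stood between those of Pdgfb and Pdgfd, and these 3 genes overlapped in range.

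**Figure D4:**
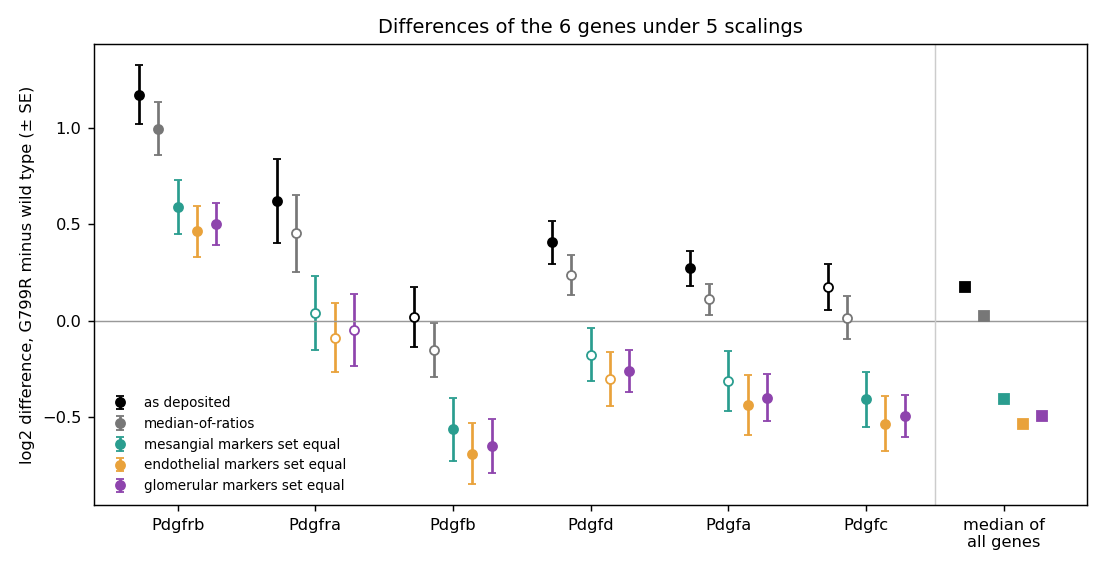
Log2 differences of the 6 genes (G799R minus wild type, ± SE, 5 libraries a group) as deposited and under 4 other scalings, filled where the limma adjusted p was under 0.05; squares give the median of all tested genes under each. Pdgfrb stays above 0 under all 5, while the 4 ligands lie below 0 when markers of the tuft are set equal.

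Of 10 listed genes that activate or bind the ligands 9 were tested, with 4 higher, 3 lower (40.5% and 19.3% of all tested genes) and a median log2 difference of 0.21, against 0.17 over all genes tested. Pcsk6, a furin-type protease, fell from 39.7 ± 12.1 to 3.99 ± 2.15 FPKM (SD, n = 5 each; limma adjusted p = 1.7e-05). St14, the membrane protease matriptase that can process PDGF-D, fell from 8.13 ± 1.95 to 2.11 ± 0.67 FPKM (limma adjusted p = 3.4e-05). Tubule markers fell in the same libraries, Cubn to 0.105 and Slc22a8 to 0.143 times wild type. Sparc, a matrix protein that binds PDGF-B, rose 1.64-fold and Lrp1, an endocytic co-receptor of Pdgfrb, 2.07-fold. Plat, the tissue plasminogen activator that removes the CUB domain of PDGF-C, was picked with its values known. It was the most abundant gene of the list and rose from 921 ± 155 to 1708 ± 392 FPKM (limma adjusted p = 0.0012). Plau, the urokinase that acts on PDGF-D, was picked in the same way and stood at 72.8 ± 10.7 and 70.0 ± 10.3 FPKM (limma adjusted p = 0.71). With the glomerular score equal, Lrp1 (0.40) was the 1 gene of the list called higher, and 5 were lower, where 2.77% of tested genes were called higher and 72.4% lower.

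Genes that carry the receptor signal were higher as deposited, with 20 of 32 called higher, 0 lower (21 and 0 at an unadjusted p under 0.05) and a median log2 difference of 0.24, beside 40.5% of all tested genes higher and 19.3% lower. The adaptor gene Nck2 rose 1.80-fold, the Src-family kinase gene Fyn 1.76-fold, the transcription factor gene Stat3 1.83-fold and the phosphatase gene Ptpn11, whose product SHP2 binds activated receptors, 1.45-fold. These 4 were named for the smallest p of the list, so their separation carries little on its own. For each of them all G799R libraries lay above wild type, as for 26.1% of all tested genes. Under median-of-ratios scaling 12 were higher and 3 lower, where 23.3% of tested genes were called higher and 25.5% lower. Once the glomerular score was set equal, 0 were higher by limma, also at an unadjusted p under 0.05, and 23 lower, beside 2.77% and 72.4% of all tested genes; the list then had a median of −0.43 beside −0.50 for all genes.

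Of 13 genes that restrain the receptors, 9 were higher and 1 lower, with a median log2 difference of 0.46, beside 40.5% and 19.3% of all tested genes. Cblb, a ubiquitin ligase, rose 1.66-fold and Ptpn1, a phosphatase known to act on PDGF receptors, 1.43-fold. The adaptor gene Slc9a3r2 (NHERF2) rose 1.58-fold, whereas its relative Slc9a3r1 (NHERF1), abundant in proximal tubule, fell from 58.3 ± 9.09 to 31.4 ± 3.41 FPKM (limma adjusted p = 8.0e-05). With the glomerular score equal limma called 0 higher and 6 lower, with the same counts at an unadjusted p under 0.05 and beside 2.77% and 72.4% of all tested genes; their median was −0.21, and Cblb stood at 0.02.

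Genes known to be induced by PDGF in cultured cells were mostly not called. Of 7 tested, 2 were higher and 0 lower by limma, with the same counts at an unadjusted p under 0.05 and a median log2 difference of 0.12, beside 40.5% and 19.3% of all tested genes. Both called are chemokine genes, and 1 of them, Ccl2, passed the filter on low values only through G799R (means 0.0528 and 2.79 FPKM), so its call supports nothing. Cxcl1 was at 1.48, 2.31, 4.02, 1.49 and 1.24 FPKM in wild-type libraries and 14.9, 16.7, 2.24, 5.66 and 8.32 in G799R libraries (limma adjusted p = 0.0071), with G799R library 3 inside the wild-type range. With the glomerular score equal its log2 difference was 0.92 and not called (adjusted p = 0.058). Ccl2 was listed at 0 in 4 wild-type libraries and at 0.264 FPKM in library 2, and stood at 1.53, 10.4, 0.175, 1.26 and 0.614 FPKM in G799R (limma adjusted p = 0.0340). Its adjusted p was 0.0543 with no filter and 0.054 to 0.062 without any 1 of wild-type libraries 1, 3, 4 and 5 and G799R library 1. G799R library 2 carried much of its size, with a log2 difference of 1.32 over all libraries and 0.79 without that library. Macrophage markers summed to 32.7 to 77.5 FPKM in wild type and 55.1 to 168 in G799R, ranges that overlap. Of these 8 markers 3 were called higher and 0 lower, beside 40.5% and 19.3% of all tested genes. Fcer1g was 5.64-fold and Tyrobp 2.65-fold higher. Fos, an immediate early gene, was at 27.0 ± 13.5 and 19.1 ± 8.63 FPKM (limma adjusted p = 0.30), and the cyclin gene Ccnd1 at 57.8 ± 11.9 and 66.1 ± 8.08 (adjusted p = 0.19). Has2, a hyaluronan synthase, was listed at 0 in 9 of 10 libraries.

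**Figure D5:**
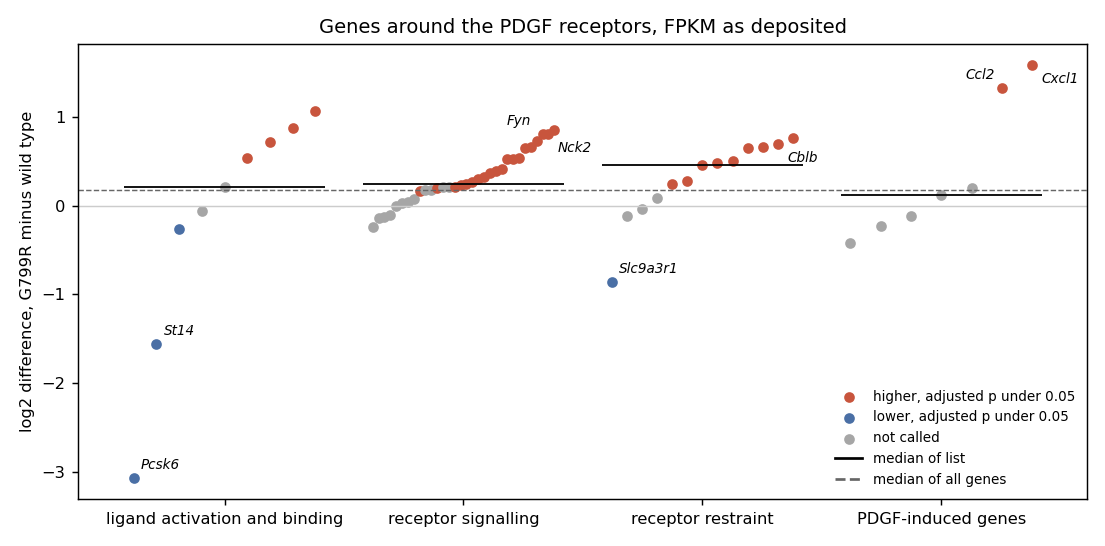
Log2 differences (G799R minus wild type, FPKM as deposited) of the tested genes of 4 lists around the PDGF receptors, each point 1 gene coloured by its call, with the 2 genes of smallest p named. The signalling and restraint lists lie mostly above 0, and Pcsk6 and St14 lie far below.

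Platelets, for which the family is named, left little RNA: the 5 platelet markers summed to 2.51 to 7.59 FPKM in wild type and 2.01 to 6.75 in G799R. Of the 3 tested, 0 were called by limma, also at an unadjusted p under 0.05, beside 40.5% of all tested genes higher and 19.3% lower. Itga2b, the platelet integrin, stood at 1.56 times wild type (limma adjusted p = 0.14). The other tested markers stood below wild type, and the median log2 difference of the list was −0.27. With the glomerular score equal 0 were called higher and 2 lower, beside 2.77% and 72.4% of all tested genes.

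Within groups the members differed in how they varied from library to library. Deviations from the group means of Pdgfb went with those of Pdgfrb (Pearson r = 0.84) and Pdgfra (0.81) over the 10 libraries, while those of Pdgfa and Pdgfra did not (0.03). Libraries share cell makeup and depth across genes, so these are descriptions. Among 9190 candidate genes averaging 5 FPKM or more, the patterns most like Pdgfrb were those of Chtop (0.96), Cenpc1 (0.96) and Iglon5 (0.96), and most like Pdgfb those of Traf3ip2 (0.95), Rsf1 (0.95) and Braf (0.945). For Pdgfra they were Luc7l2 (0.97), Ddx49 (0.96) and Ccdc9b (0.95), for Pdgfa Lrrc32, Eif5 and Skil (0.91, 0.91 and 0.90) and for Pdgfc Ppp4r3b, Mark1 and Abhd8 (0.96, 0.94 and 0.94). The pattern of Pdgfd was most like those of the MHC class I genes H2-Q7 (0.95) and H2-Q4 (0.91), whose close paralogs make single values uncertain, and Asns (0.91). These are the highest of 9190 correlations a gene, each over 10 libraries.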

How the data were processed

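The authors deposited 1 table of FPKM values for 10 libraries, with 1 column per library. The submitters' processing notes list RSEM, StringTie 1.3.1, HISAT2, Bowtie2 2.2.8 and fastp 0.18.0 without roles; the genome build is not given in the sources used here. Columns were matched through the names in the labels, and 21963 of 22053 identifiers had a symbol. Positions are from GENCODE M21.

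FPKM was used as deposited. Genes averaging 0.5 FPKM or more (13117) entered a two-sided limma-trend test (limma 3.58.1, R 4.3.3) on log2(FPKM + 1), called at a Benjamini-Hochberg adjusted p under 0.05. A pseudocount of 1 makes low genes look less changed, and folds are ratios of mean FPKM. Marker scores are mean log2(FPKM + 1) of a list, and marker scaling subtracts the score. Ratios used exact permutation tests. On simulated data built from these 13117 genes the fit recovered 74.6% of 1.5-fold, 88.1% of 2-fold and 98.5% of 4-fold changes, with 5 false calls among 179. Only 67, 67 and 66 genes were changed there, in both directions and with noise drawn gene by gene. The deposited values gave 7845 calls and marker shifts shared by many genes, so these rates need not hold for them.

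The members and lists were chosen with earlier results of these data known. Named were the members, up to 4 genes of smallest p per pathway list, 2 per marker list, and the 3 genes most like each member. One marker gene that this rule names is not reported here. Relative depth rests on 58 to 93 of 939 to 1112 low genes per library.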

Additional observations from a re-analysis of the deposited data

How the results depend on the processing

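Pdgfrb kept its direction in every alternative run and its call in all but the fit with the tubule score as a covariate (0.29, adjusted p = 0.96). That fit called 0 genes by limma over the whole table (752 at an unadjusted p under 0.05), against 7845, and gave 0.039 for Pdgfa, −0.75 for Pdgfb, −0.72 for Pdgfc, −0.28 for Pdgfd and −0.71 for Pdgfra, with 0 genes higher in each of the 4 pathway lists, and its tubule score does not overlap between the groups. Median-of-ratios scaling gave 0.11 (Pdgfa), −0.15 (Pdgfb), 0.24 (Pdgfd) and 0.45 (Pdgfra), none called, and 12 signalling genes higher. It moved the split of all calls to 3057 higher and 3341 lower, from 5308 and 2537. Quantile normalisation gave −0.082 for Pdgfb and 0.53 for Pdgfra (adjusted p = 0.0507). With glomerular, mesangial and endothelial markers set equal in turn, Pdgfa was at −0.40, −0.31 and −0.44, Pdgfb at −0.65, −0.56 and −0.69, Pdgfc at −0.50, −0.41 and −0.54, Pdgfd at −0.26, −0.18 and −0.30 and Pdgfra at −0.049, 0.038 and −0.088. Those scalings left 1, 1 and 1 activation genes higher, 0 signalling and 0 restraint genes each, and 0, 1 and 0 induced genes. Glomerular scaling called 363 genes higher and 9491 lower. Leaving out 1 library gave 0.24 to 0.33 for Pdgfa, −0.12 to 0.12 for Pdgfb (below 0 without wild-type libraries 4 or 5 or G799R library 5), 0.12 to 0.28 for Pdgfc, 0.46 to 0.80 for Pdgfra and 1 to 2 induced genes higher. It gave −0.56 to −0.18 for the log2 ratio of Pdgfa to Pdgfra, −0.52 to −0.31 for Pdgfc to Pdgfra and 0.46 to 0.64 for Pdgfrb to Pdgfra. Without G799R libraries 3 and 4, Pdgfra was at 0.70 (adjusted p = 0.0527), and 3 of 6 members were called higher and 0 lower. That fit called 4871 of the 13117 tested genes higher and 2250 lower, so this count of members carries little on its own. The cause of these shifts between settings was not tested. List counts under these settings were chosen after seeing the data.

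Replicate numbers are shared between groups, but same-numbered libraries did not deviate together (correlations −0.08 to 0.05, each under 0.1). These numbers are from the sample titles, and the column names number the G799R libraries otherwise. Such correlations cannot tell whether any libraries of the 2 groups share a batch, and the labels name none. With the replicate block Pdgfa was at 0.27 (adjusted p = 0.0526), 7388 genes were called and no wild-type library correlated best with its own number. Paired differences left the ratios at −1.15 (Pdgfb to Pdgfrb) and −0.77 (Pdgfd to Pdgfrb), where 5 pairs allow no exact p below 0.0625. Without counts, depth sets no limit that could be computed here.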
